A study of Mus musculus with 8 samples.

Results

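The collagen chains are the subunits of the triple helical proteins that make up most of the extracellular matrix of skin. They were taken as all genes whose mouse symbol is Col, digits, a and digits, with Col17a1 and Col7a1, the collagens that anchor basal keratinocytes, left out by the rule. The deposited transcripts named 41 such genes among 23146 genes. They comprise 11 fibrillar chains, 6 chains of type IV and 2 multiplexins of basement membranes, 6 chains of the beaded filament type VI, 8 FACITs (fibril-associated collagens with interrupted triple helices), 3 hexagonal network chains, 3 transmembrane chains and 2 others. Col12a1, a further FACIT, was not matched to a transcript and is not analysed here.

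RNA was sequenced from the epidermis of mouse embryos after its separation from the dermis. The series title gives the aim of the study as the function of Nir (Noc2l) in epidermis during development. There were 4 groups of 2 libraries each: control and knockout epidermis at embryonic stage E15.5, and the same genotypes at E17.5. Embryos of all groups derive from mice with floxed Nir alleles. Knockout embryos also carried Krt14-Cre, in which the keratin 14 promoter drives Cre recombinase in keratinocytes, and control embryos were described as Nir floxed only. Keratin 14 is a keratin of basal keratinocytes. Nothing in the labels says that the replicates are separate embryos or litters, so p-values measure the spread between these libraries, which may be technical in part.

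Collagen chains assemble as homotrimers or heterotrimers in the endoplasmic reticulum, after prolines and lysines are hydroxylated, and are trimmed and crosslinked outside the cell. In skin, fibroblasts of the dermis make most fibrillar, FACIT and type VI chains, which form the fibrils and the microfibrils around them. Type IV networks, with the multiplexins, belong to the basement membranes under the epidermis and around vessels, nerves and muscle.

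The type IV chains are encoded in pairs that lie head to head, and the chains of a pair can be read against each other. Stretches of promoter sequence are shown for Col1a2 and Col3a1, abundant fibrillar chains that both rose in knockout epidermis, and for Col4a5 and Col4a6, neighbours of which Col4a6 fell at both stages and Col4a5 at neither. Each stretch is the 200 bases from 250 to 51 bases before the start of transcription in RefSeq's promoter entry, on the gene's own strand, on GRCm38.p6. That start is base 141475419 for Col4a5 and base 141474076 for Col4a6, which both lie inside the gene spans given with the levels, while for Col1a2 and Col3a1 it is the first base of the span. Capitals mark the letters of 4 motifs, none of which overlaps another here, searched on both strands: the CCAAT box (those letters), the GC box (letters GGGCGG), the TATA box (letters TATAAA) and the AP-1 site (letters TGANTCA).
Col1a2, chr6:4505368-4505567, plus strand: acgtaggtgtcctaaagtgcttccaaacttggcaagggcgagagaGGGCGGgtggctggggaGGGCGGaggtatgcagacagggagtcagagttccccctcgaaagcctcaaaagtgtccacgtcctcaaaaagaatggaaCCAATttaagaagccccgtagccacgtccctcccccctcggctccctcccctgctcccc
Col3a1, chr1:45311288-45311487, plus strand: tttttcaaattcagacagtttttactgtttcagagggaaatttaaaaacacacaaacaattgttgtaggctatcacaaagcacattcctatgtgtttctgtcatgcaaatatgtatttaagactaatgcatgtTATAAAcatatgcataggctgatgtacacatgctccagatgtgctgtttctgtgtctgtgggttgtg
Col4a5, chrX:141475169-141475368, plus strand: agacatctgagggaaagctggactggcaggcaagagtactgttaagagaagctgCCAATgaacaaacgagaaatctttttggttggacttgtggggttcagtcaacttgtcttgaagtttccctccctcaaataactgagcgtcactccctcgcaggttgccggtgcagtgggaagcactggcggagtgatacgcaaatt
Col4a6, chrX:141474127-141474326, minus strand: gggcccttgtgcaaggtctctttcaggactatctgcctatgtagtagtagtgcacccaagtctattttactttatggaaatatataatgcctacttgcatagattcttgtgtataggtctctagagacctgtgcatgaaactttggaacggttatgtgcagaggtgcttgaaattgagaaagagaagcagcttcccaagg
The Col1a2 stretch held a CCAAT box that began 109 bases before the start and GC boxes at 205 and 188 bases. The Col3a1 stretch held the letters of a TATA box at 117 bases, and the Col4a5 stretch a CCAAT box at 196 bases. None of the 4 motifs was in the Col4a6 stretch. Bases nearer to the start than 51 were not searched, so a motif there, such as a TATA box, would be missed. These matches are a description: of 32851 mouse promoter stretches of the same length, 28.4% held a CCAAT box, 24.6% a GC box, 9.14% a TATA box and 5.57% an AP-1 site. A promoter entry was found for 33 of the 41 chains.

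Gene counts summed to between 25226357 and 28895657 per library, and replicates of a group correlated at 0.992 to 0.994 across genes (log2 scale). Noc2l, the targeted gene, stood at 107 and 97.4 CPM (counts scaled to library size) in E15.5 controls against 95.6 and 91.6 in E15.5 knockouts, and at 105.5 and 121 against 85.4 and 86.9 at E17.5. It passed the test at E17.5 only (log2 fold change -0.39 ± 0.10, SE, edgeR adjusted p = 0.0062; E15.5 -0.12 ± 0.10, adjusted p = 0.33). Since reads are counted over the full transcript and the floxed exons are not named, this level does not check the genotype labels. Keratinocyte markers were present in every library, and markers of fibroblasts, vessels, muscle and Schwann cells were present too. Skeletal muscle markers summed to 8275 to 10319 CPM in controls and 14938 to 26740 in knockouts, more than basal keratinocyte markers in every library. Basal keratinocyte markers summed to 7447 to 8193 CPM in controls and 1579 to 2368 in knockouts. Suprabasal keratinocyte markers summed to 43039 to 93021 CPM in controls and 1175 to 6430 in knockouts. The E15.5 knockout replicate 1 library stood apart for cartilage genes: of 10 chondrocyte markers, 6 were highest in it.

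Collagen transcripts took a larger part of the libraries in knockout than in control epidermis at both stages. The 41 chains held 3.64% and 3.74% of all gene counts in E15.5 controls, 10.2% and 8.79% in E15.5 knockouts, 3.58% and 4.23% in E17.5 controls and 10.6% and 11.4% in E17.5 knockouts. All knockout libraries were above all control libraries. In bulk RNA, fewer cells of a type and less RNA per cell cannot be told apart.

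Levels of different chains were compared as RPKM, the CPM divided by the transcript length in kilobases. Averaged over the 8 libraries, 28 of the 41 chains reached 1 RPKM. The highest were Col1a1 (3747 RPKM), Col3a1 (3282) and Col1a2 (2734), followed by Col6a2 (638), Col6a1 (576), Col5a1 (339), Col6a3 (295), Col5a2 (219) and Col4a1 (215). Fibrillar chains made up 79.1% and 80.7% of the summed collagen RPKM in E15.5 controls and 84.1% and 83.6% in E15.5 knockouts, and at E17.5 they made up 77.2% and 77.3% against 83.8% and 83.7%. The share of fibrillar chains was thus higher in every knockout library than in any control library. The shares of the basement membrane classes were lower in every knockout library: type IV went from 4.08% and 3.76% to 2.19% and 2.26% at E15.5 and from 4.84% and 4.504% to 2.59% and 2.31% at E17.5. Multiplexins went from 1.33% and 1.21% to 0.650% and 0.678%, and from 1.62% and 1.60% to 0.721% and 0.608%. The summed levels of both classes were nevertheless higher in knockouts. Mean summed RPKM of type IV went from 261 to 382 at E15.5 and from 289 to 494 at E17.5. That of multiplexins went from 84.8 to 114 and from 99.9 to 134. Type VI held 12.4% to 14.6% in controls and 11.3% to 11.9% in knockouts, which also did not overlap. FACITs overlapped between genotypes, at 1.23% to 1.49% in controls and 1.27% to 1.38% in knockouts. With 2 libraries a group an exact permutation test cannot go below p = 0.33, so shares were not tested.

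**Figure D1:**
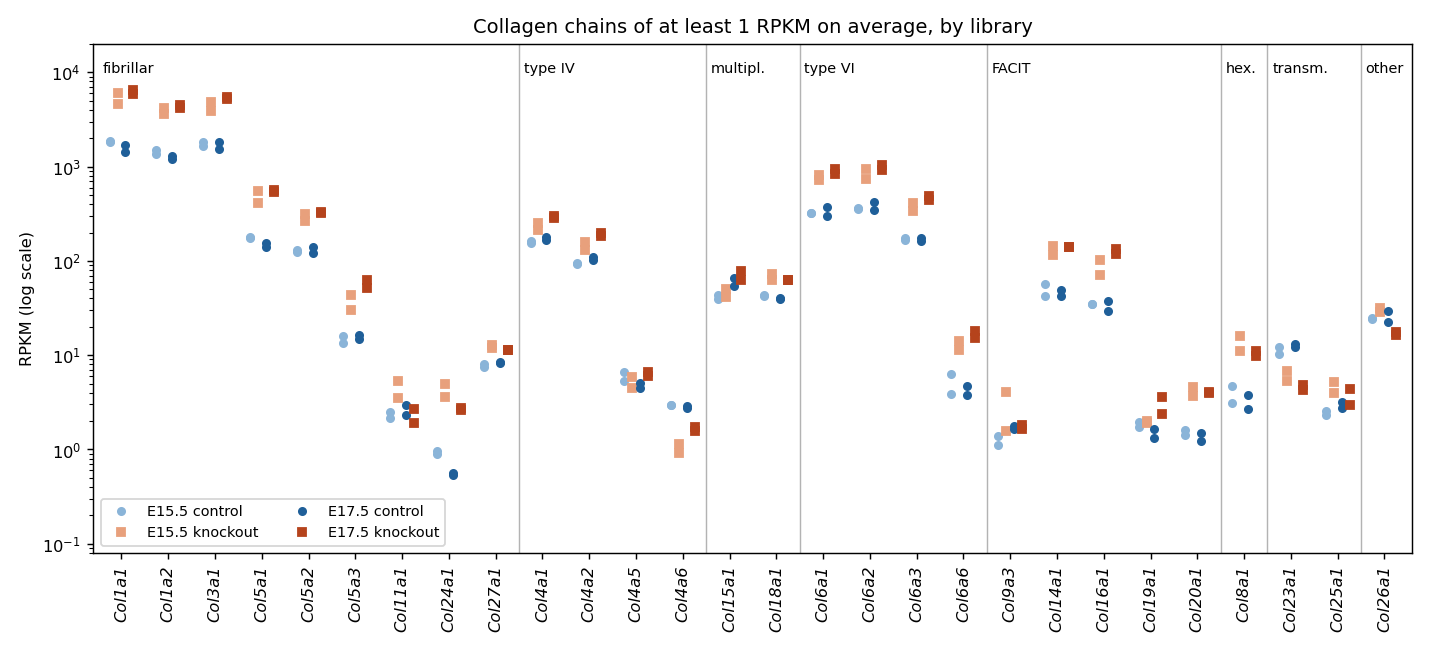
Level of each collagen chain of at least 1 RPKM on average (y axis, RPKM on a log scale) in each of the 8 libraries, ordered by class; circles are control and squares knockout libraries, lighter for E15.5 and darker for E17.5. Most fibrillar, type VI and FACIT chains have their 4 squares above their 4 circles, whereas Col4a6 and Col23a1 have them below.

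**Figure D2:**
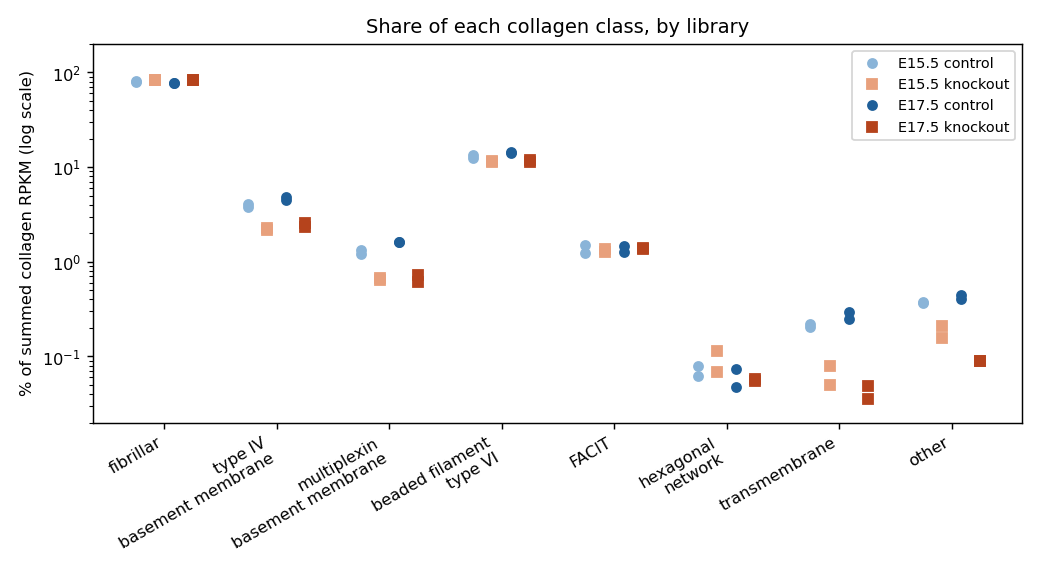
Share of each collagen class in the summed collagen RPKM (y axis, percent on a log scale) in each library, with the same symbols. Fibrillar chains hold 77.2% to 84.1% in all libraries, and the type IV, multiplexin and transmembrane shares lie lower in the knockout squares than in the control circles.

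At E15.5, collagen chains were mostly higher in knockout epidermis. Of the 41 chains, 28 rose, 3 fell (Col4a6, Col13a1 and Col23a1), 8 did not pass the test and 2 (Col4a3 and Col10a1) had too few counts to be tested. Over all 16342 genes tested, 45.5% were called, 23.2% risen and 22.3% fallen. The median log2 fold change of the 39 tested chains was 1.13, beside a median of -0.0047 over all genes. At E17.5, 25 rose, 4 fell (the same 3 and Col26a1) and 10 did not pass, with a median of 0.92. Over all genes 53.5% were called at E17.5, 26.7% risen and 26.7% fallen, with a median of -0.023 over all genes. Among the 28 chains of at least 1 RPKM, 22 rose and 2 fell at E15.5 and 21 rose and 3 fell at E17.5. That average includes the knockout libraries, so Col24a1 (0.539 to 0.967 RPKM in controls) entered through them. The counts among these chains are therefore no separate evidence of the rise. With library totals as the only scaling the median of all genes at E17.5 was -0.23, and 23 chains then rose and 4 fell.

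**Figure D3:**
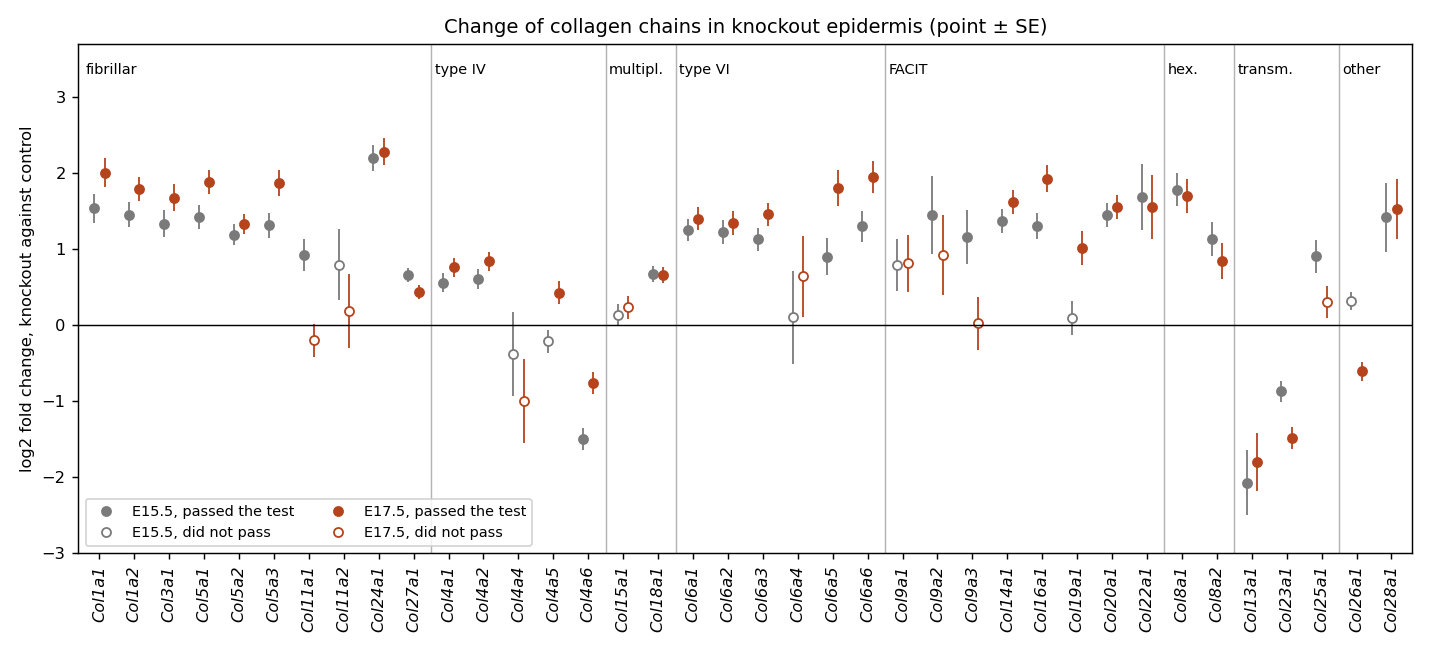
Log2 fold change of knockout against control (y axis, point ± SE) for the tested chains by class, grey for E15.5 and red for E17.5; filled points passed the test and open points did not, and Col2a1 is left off because its fold change at E15.5 (7.47) lies outside the axis. Most points lie above 0, and those of Col4a6, Col13a1, Col23a1 and Col4a4 (which did not pass) lie below 0 at both stages.

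Among the fibrillar chains, 10 of 11 rose at E15.5 (median 1.33) and 8 of 11 at E17.5 (median 1.68), and none fell. Col1a1 (chromosome 11, 94936224 to 94953042, GRCm38), the main chain of type I collagen, stood at 1832 and 1857 RPKM in E15.5 controls, 6109 and 4593 in E15.5 knockouts, 1414 and 1696 in E17.5 controls and 5959 and 6517 in E17.5 knockouts. Its lowest knockout library was above its highest control library. Col1a1 rose by 1.54 ± 0.19 on the log2 scale (SE, 2 libraries a group, edgeR adjusted p = 5.5e-05), or 2.90-fold, at E15.5 and by 2.00 ± 0.19 (adjusted p = 5.9e-06), or 4.01-fold, at E17.5. Its partner Col1a2 (chromosome 6, 4505618 to 4541543), whose promoter stretch is shown above, stood at 1365 and 1491 RPKM against 4232 and 3592 at E15.5 and at 1205 and 1303 against 4211 and 4471 at E17.5. The groups did not overlap, and Col1a2 rose by 1.45 ± 0.16 and 1.79 ± 0.16 (adjusted p = 2.5e-05 and 3.9e-06).

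Col3a1 (chromosome 1, 45311538 to 45349706), which forms homotrimers in the fibrils of skin and vessels, stood at 1636 and 1820 RPKM against 4795 and 3920 at E15.5 and at 1539 and 1817 against 5268 and 5461 at E17.5. All knockout libraries were again above all control libraries, and Col3a1 rose by 1.33 ± 0.17 and 1.68 ± 0.18 (adjusted p = 8.7e-05 and 1.2e-05). Col5a2, the gene next to Col3a1 at a distance of 24.6 kb and arranged tail to tail with it, rose by 1.19 and 1.33. The type V chains, which set the diameter of type I fibrils, also included Col5a1 (1.42 and 1.89) and Col5a3 (1.31 and 1.87). Col5a3 stood at 16.1 and 13.5 RPKM in E15.5 controls against 43.1 and 30.4 in E15.5 knockouts, and at 14.7 and 16.5 against 63.1 and 51.3 at E17.5, and its genotypes did not overlap. Of the minor fibrillar chains, Col24a1 rose by 2.20 and 2.28, the largest fitted change of a fibrillar chain apart from Col2a1, from a low level of 0.539 to 0.967 RPKM in controls to between 2.61 and 4.999 in knockouts. Col27a1 rose by 0.66 and 0.43, and its E17.5 call was lost with library totals as the only scaling (0.22, adjusted p = 0.077).

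The cartilage chains of the fibrillar class and their FACIT partners were uneven between libraries. Col2a1, the chain of the type II collagen of cartilage, had 0 and 5 counts in E15.5 controls, 933 and 26 in E15.5 knockouts, 7 and 8 in E17.5 controls and 15 and 6 in E17.5 knockouts. A single library, E15.5 knockout replicate 1, thus held 933 of the 1000 counts of Col2a1. The fitted change of 7.47 ± 1.60 at E15.5 passed the test (adjusted p = 0.0026). Without that library the change was 3.20 and still passed, on 26 knockout counts against 0 and 5 in controls. It missed the threshold with limma-voom (6.45, adjusted p = 0.22). At E17.5 the Col2a1 groups overlapped (0.57 ± 1.97, adjusted p = 0.83). Col9a2 and Col9a3, which coat type II fibrils, stood at 0.542 and 0.394 against 1.94 and 0.638 RPKM and at 1.39 and 1.12 against 4.04 and 1.58 RPKM at E15.5. They rose by 1.45 ± 0.52 and 1.16 ± 0.36 (adjusted p = 0.039 and 0.020), and without knockout replicate 1 their changes were 0.44 and 0.33 (adjusted p = 0.54 and 0.38). Both calls also ended with limma-voom (adjusted p = 0.091 and 0.058) and on leaving out either E15.5 control library (adjusted p from 0.053 to 0.18). Col11a1, which joins type II fibrils, rose by 0.92 ± 0.21 at E15.5 (adjusted p = 0.0045), with 0.59 without that library (adjusted p = 0.056), and had -0.20 at E17.5 (adjusted p = 0.45). Col9a1 and Col11a2 did not pass at either stage. The chondrocyte markers other than Sox9 summed to 5.29 and 9.56 CPM in E15.5 controls, 21.8 and 9.04 in E15.5 knockouts, 8.59 and 10.8 in E17.5 controls and 12.5 and 16.6 in E17.5 knockouts. Of the 10 markers, 0 to 3 were at 0 in each library, with none at 0 in E15.5 knockout replicate 1 and in E17.5 control replicate 1. Sox9, which keratinocytes of follicles also express, was the only one of them that fell at both stages, and the part of cartilage RNA in these changes was not tested. Without that library, 23 of the 41 chains rose at E15.5 and 3 fell.

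The type IV chains did not move together. Col4a1 (chromosome 8, 11198423 to 11312889) and Col4a2 (11312805 to 11449287), which assemble together in nearly every basement membrane, lie head to head with spans that overlap by 85 bases. The strand used for counting is not given in the sources used here, so reads in an overlap cannot be assigned with certainty. Col4a1 stood at 162 and 153.5 RPKM against 251 and 213 at E15.5 and at 168 and 181 against 303 and 288 at E17.5. It rose by 0.56 ± 0.13 and 0.76 ± 0.13 (adjusted p = 0.0041 and 4.4e-04), a change of 1.47-fold and 1.69-fold. Col4a2 stood at 96.2 and 93.2 RPKM against 159 and 129 at E15.5 and at 103 and 111 against 196 and 185.5 at E17.5, and it rose by 0.61 ± 0.13 and 0.84 ± 0.13 (adjusted p = 0.0026 and 2.3e-04). For both chains all knockout libraries were above all control libraries.

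Col4a6 (chromosome X, 141165403 to 141474095) went the other way. With Col4a5 it forms the other type IV network of the epidermal basement membrane. Its level was 2.94 and 2.94 RPKM in E15.5 controls against 1.15 and 0.926 in E15.5 knockouts, and 2.86 and 2.75 against 1.72 and 1.58 at E17.5. Every knockout library was below every control library. Col4a6 fell by 1.5 ± 0.15 at E15.5 (adjusted p = 1.1e-05) and by 0.77 ± 0.14 at E17.5 (adjusted p = 9.3e-04), or 2.83-fold and 1.70-fold. Col4a5 (chromosome X, 141475370 to 141689236), which lies on the other strand with 1274 bases between the spans, stood at 5.37 and 6.59 RPKM against 5.83 and 4.46 at E15.5 and at 5.02 and 4.47 against 6.71 and 6.01 at E17.5. Its groups overlapped at E15.5 (-0.22 ± 0.15, adjusted p = 0.27) and it rose by 0.42 ± 0.15 at E17.5 (adjusted p = 0.034). That call was lost with library totals as the only scaling (0.21, adjusted p = 0.21) and without E17.5 control replicate 2 (0.34, adjusted p = 0.16), knockout replicate 1 (0.32, adjusted p = 0.20) or knockout replicate 2 (0.48, adjusted p = 0.058). Col4a4 and Col4a3, a pair of the kidney filter whose spans overlap by 114 bases on chromosome 1, were near 0. Col4a4 had 13 and 24 counts in E15.5 controls against 13 and 17 in E15.5 knockouts, and 18 and 34 against 16 and 8 at E17.5. Col4a3 had 5 and 8 counts in E15.5 controls against 5 and 4 in E15.5 knockouts, and 15 and 0 against 9 and 6 at E17.5. Col4a4 did not pass the test (-0.38 ± 0.56 and -1.003 ± 0.55, adjusted p = 0.61 and 0.15).

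The multiplexins, which link basement membranes to the matrix beneath, were close in level. Col18a1, the precursor of endostatin, stood at 43.2 and 42.8 RPKM against 73.4 and 63.1 at E15.5 and at 39.5 and 40.2 against 63.2 and 63.1 at E17.5. Its groups did not overlap, and it rose by 0.67 ± 0.11 and 0.66 ± 0.11 (adjusted p = 3.7e-04 and 2.9e-04). Col15a1 stood at 43.9 and 39.7 RPKM against 50.7 and 41.0 at E15.5 and at 53.9 and 66.2 against 77.8 and 63.3 at E17.5. Its groups overlapped at both stages, and it did not pass the test (0.13 ± 0.15 and 0.23 ± 0.15, adjusted p = 0.50 and 0.21).

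Of the 6 type VI chains, which form beaded microfibrils around cells, 5 rose at each stage (medians 1.17 and 1.43). Col6a1 (chromosome 10, 76708792 to 76726044) stood at 325 and 319 RPKM against 816 and 716 at E15.5 and at 298 and 371 against 832 and 933 at E17.5, and it rose by 1.25 ± 0.15 and 1.40 ± 0.15 (adjusted p = 4.2e-05 and 1.3e-05). Col6a2, 85.2 kb away on the same strand, stood at 361 and 357 against 936.5 and 739 and at 346.5 and 419 against 915 and 1029, and it rose by 1.22 ± 0.16 and 1.34 ± 0.16 (adjusted p = 7.9e-05 and 2.8e-05). Col6a3, the remaining chain of the classical trimer, stood at 175 and 167 against 414 and 334 and at 161 and 177 against 441 and 487, and it rose by 1.13 ± 0.15 and 1.46 ± 0.15 (adjusted p = 8.6e-05 and 9.2e-06). For these 3 chains no knockout library was below a control library. The long chains that can take the place of Col6a3 lie in a row on chromosome 9: Col6a6 rose by 1.30 and 1.95 and Col6a5 by 0.90 and 1.80, while Col6a4 had 7 to 27 counts per library and did not pass. Leaving out E15.5 control replicate 1 took Col6a5 at E15.5 below the threshold (0.59, adjusted p = 0.091).

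FACITs lie on the surface of fibrils, and 6 of 8 rose at E15.5 and 5 of 8 at E17.5 (medians 1.34 and 1.28). Col14a1 (chromosome 15, 55307644 to 55520803), which binds type I fibrils, stood at 56.5 and 42.8 RPKM against 142 and 115 at E15.5 and at 49.1 and 42.5 against 142 and 139.6 at E17.5. It rose by 1.37 ± 0.16 and 1.62 ± 0.16 (adjusted p = 3.2e-05 and 6.7e-06). Col16a1 stood at 34.7 and 35.2 RPKM against 101 and 71.0 at E15.5 and at 29.1 and 37.2 against 117.5 and 134.5 at E17.5, and it rose by 1.30 ± 0.17 and 1.93 ± 0.18 (adjusted p = 9.4e-05 and 3.8e-06). Neither chain had overlapping groups. Col20a1 rose by 1.45 and 1.56 and Col22a1, a chain of tissue junctions with 10 to 49 counts per library, by 1.68 and 1.55. Col19a1 rose at E17.5 (1.01 ± 0.22, adjusted p = 0.0023) and did not pass at E15.5 (0.09 ± 0.22, adjusted p = 0.76). The calls of Col22a1 ended on leaving out E15.5 control replicate 1 (1.41, adjusted p = 0.067), E15.5 knockout replicate 1 (1.40, adjusted p = 0.071), E17.5 control replicate 1 (1.37, adjusted p = 0.063) or E17.5 knockout replicate 2 (1.46, adjusted p = 0.052).

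Both tested hexagonal network chains rose. Col8a1, a chain of vessel walls and of the corneal Descemet's membrane, stood at 3.13 and 4.70 RPKM against 11.1 and 15.8 at E15.5 and at 3.75 and 2.70 against 9.89 and 10.96 at E17.5. It rose by 1.78 ± 0.22 and 1.70 ± 0.22 (adjusted p = 5.8e-05 and 6.4e-05). Col8a2, its partner, stood at 0.836 and 0.727 RPKM against 1.88 and 1.55 at E15.5 and at 0.469 and 0.474 against 0.775 and 0.921 at E17.5, and it rose by 1.13 ± 0.22 and 0.85 ± 0.24 (adjusted p = 0.0015 and 0.010). Neither chain had overlapping groups. The E17.5 call of Col8a2 was lost without E17.5 knockout replicate 2 (0.70, adjusted p = 0.076). Col10a1, the chain of hypertrophic cartilage, had 4 and 3 counts in E15.5 controls and 4 and 4 in E15.5 knockouts. At E17.5 it had 2 and 0 in controls and 1 and 10 in knockouts. These E17.5 groups overlapped, and a single library, E17.5 knockout replicate 2, held 10 of the 11 knockout counts. The ratio of the pooled E17.5 counts was 5.85, with a 95% counting interval of 1.28 to 54.3. That interval covers counting error only and leaves out the spread between libraries.

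Of the 3 transmembrane chains, Col23a1 and Col13a1 fell at both stages. Col23a1 (chromosome 11, 51289679 to 51583925) stood at 10.2 and 12.3 RPKM in E15.5 controls against 5.36 and 6.88 in E15.5 knockouts, and at 13.0 and 12.3 against 4.83 and 4.23 at E17.5. All knockout libraries were below all control libraries, and Col23a1 fell by 0.87 ± 0.14 and 1.48 ± 0.14 (adjusted p = 4.0e-04 and 6.2e-06). Col13a1, a chain of the neuromuscular junction and other adhesion sites, was near 0 in knockouts, with 61 and 48 counts against 14 and 13 at E15.5 and 73 and 126 against 34 and 19 at E17.5. Its groups did not overlap, and it fell by 2.08 ± 0.43 and 1.80 ± 0.38 (adjusted p = 0.0021 at both stages). Col25a1, which muscle needs to be innervated, stood at 2.56 and 2.31 RPKM against 3.95 and 5.16 at E15.5 and at 3.16 and 2.78 against 4.36 and 2.99 at E17.5. It rose at E15.5 (0.90 ± 0.22, adjusted p = 0.0053), against the direction of its class, and its groups overlapped at E17.5 (0.31 ± 0.21, adjusted p = 0.25). Leaving out E15.5 knockout replicate 2 ended that call (0.69, adjusted p = 0.054).

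Of the 2 other chains, Col28a1, a collagen of peripheral nerves, had 28 and 15 counts against 79 and 42 at E15.5 and 63 and 44 against 173 and 119 at E17.5. It rose by 1.42 ± 0.46 and 1.52 ± 0.40 (adjusted p = 0.025 and 0.0069), and these calls ended on leaving out E15.5 control replicate 2 (1.05, adjusted p = 0.16), E15.5 knockout replicate 1 (0.84, adjusted p = 0.22), E17.5 control replicate 2 (1.21, adjusted p = 0.063) or E17.5 knockout replicate 1 (1.19, adjusted p = 0.070). Col26a1 (chromosome 5, 136741759 to 136883376) stood at 24.0 and 24.9 RPKM in E15.5 controls against 29.0 and 31.9 in E15.5 knockouts, and at 22.8 and 29.1 against 16.2 and 17.7 at E17.5. Its knockout libraries were thus above the controls at E15.5 (0.32 ± 0.12, adjusted p = 0.057) and below them at E17.5, where it fell by 0.61 ± 0.12 (adjusted p = 0.0016).

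The difference between the knockout effects at the 2 stages was tested for every chain. Col26a1 was the only chain that passed, with a difference of -0.93 ± 0.18 (E17.5 minus E15.5, adjusted p = 0.013). Over all genes 4.35% were called in that test, 1.88% higher and 2.47% lower. Without E15.5 control replicate 1 the difference for Col26a1 was -0.90 (adjusted p = 0.055). The other chains whose call differed between the stages did not pass it: Col11a1 had -1.12 ± 0.30 (adjusted p = 0.066), Col19a1 0.92 ± 0.31 (adjusted p = 0.14), Col4a5 0.64 ± 0.21 (adjusted p = 0.13) and Col25a1 -0.60 ± 0.30 (adjusted p = 0.34). Nor did Col2a1 (-6.90 ± 3.02, adjusted p = 0.26), Col9a2 (-0.53 ± 0.74, adjusted p = 0.79) or Col9a3 (-1.14 ± 0.50, adjusted p = 0.26). Col4a6, which fell at both stages, had 0.73 ± 0.21 (adjusted p = 0.075). Between 0 and 4 chains were called lower and 0 or 1 higher when a library was left out.

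Stage comparisons within a genotype share libraries with the knockout comparisons. In control epidermis, Col15a1 rose (0.52 ± 0.15, adjusted p = 0.047) and Col24a1 fell by 0.76 ± 0.19 (adjusted p = 0.024) from E15.5 to E17.5, and 37 tested chains did not pass, beside 10.9% of all genes called, 3.15% risen and 7.7% fallen. In knockout epidermis 4 chains rose and 5 fell, beside 13.1% of all genes called, 6.19% risen and 6.91% fallen. Those risen were Col6a5 (1.11 ± 0.23), Col4a6 (0.67 ± 0.15), Col5a3 (0.64 ± 0.17) and Col15a1 (0.62 ± 0.15), with adjusted p from 0.0069 to 0.026. Those fallen were Col2a1 (-5.52 ± 1.30), Col8a2 (-1.01 ± 0.22), Col11a1 (-0.95 ± 0.21), Col26a1 (-0.84 ± 0.12) and Col24a1 (-0.68 ± 0.16), with adjusted p from 8.4e-04 to 0.016. The Col2a1 value was -1.26 without E15.5 knockout replicate 1, the library with 933 counts (adjusted p = 0.45), and it missed the threshold with limma-voom (-3.92, adjusted p = 0.36) and without E17.5 knockout replicate 1 or 2 (adjusted p = 0.079 and 0.095). Of the stage calls in knockout epidermis, only that of Col26a1 passed with each library left out in turn, and the chains other than Col2a1 that missed the threshold had adjusted p from 0.058 to 0.24 in the fits that lacked one of the knockout libraries. In control epidermis the call of Col24a1 ended without any one of the 4 control libraries (adjusted p from 0.060 to 0.15) and that of Col15a1 without E15.5 control replicate 1 or 2 or E17.5 control replicate 2 (adjusted p from 0.11 to 0.31). The stage counts were the least stable: leaving out 1 library gave 0 to 1 risen and 0 to 2 fallen chains in control epidermis and 0 to 7 risen and 2 to 7 fallen in knockout epidermis. No chain of the type I trimer and none of Col3a1, Col4a1, Col4a2 or Col6a1 to Col6a3 passed either stage comparison.

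Chains that assemble together were also set side by side within each library. The ratio of Col1a1 to Col1a2 RPKM was 1.34 and 1.25 in E15.5 controls, 1.44 and 1.28 in E15.5 knockouts, 1.17 and 1.30 in E17.5 controls and 1.42 and 1.46 in E17.5 knockouts, and the genotypes overlapped at E15.5. The ratio of Col4a1 to Col4a2 stayed between 1.54 and 1.68 in all 8 libraries. Col6a1 to Col6a2 stayed between 0.859 and 0.969, and Col6a3 to Col6a2 between 0.422 and 0.485. The ratio of Col5a1 to Col5a2 was 1.43 and 1.36 in E15.5 controls and 1.73 and 1.53 in E15.5 knockouts, and 1.17 and 1.12 against 1.75 and 1.63 at E17.5, higher in all knockout libraries. The ratio of Col4a5 to Col4a6 was 1.82 and 2.25 against 5.06 and 4.81 at E15.5 and 1.76 and 1.63 against 3.90 and 3.81 at E17.5, with no overlap of the genotypes. These ratios are descriptions and were not tested.

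**Figure D4:**
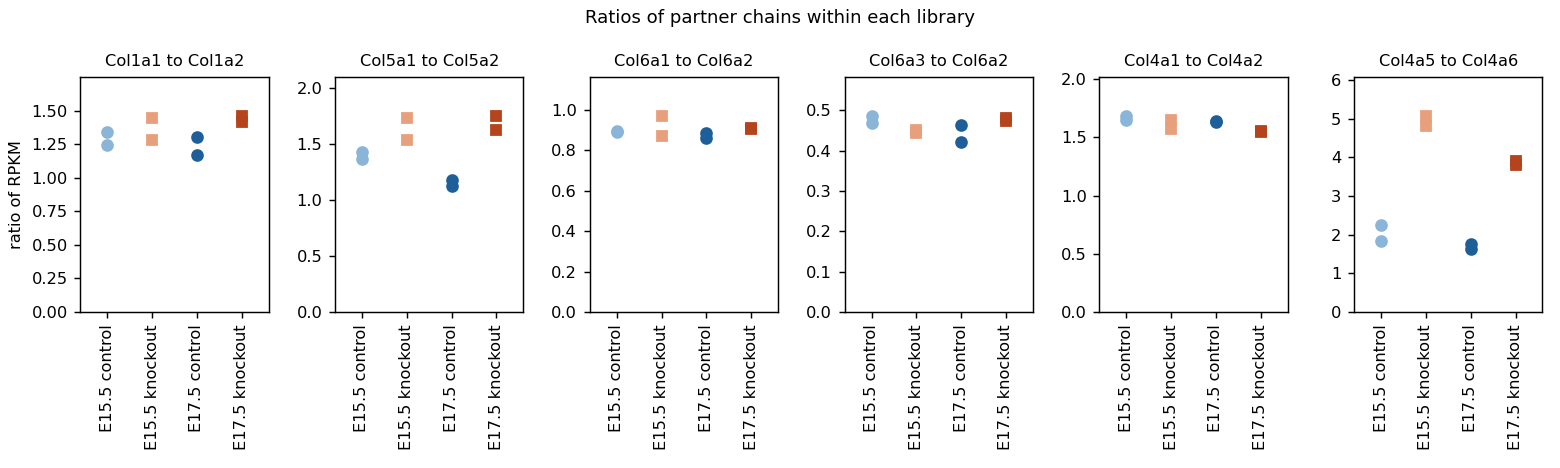
Ratio of the RPKM of partner chains within each library (y axis, from 0), 1 panel a pair and 2 libraries a group, with the same symbols. The ratio of Col4a5 to Col4a6 is 1.63 to 2.25 in controls and 3.81 to 5.06 in knockouts, while the ratios of Col4a1 to Col4a2 and within type VI stay level across the groups.

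The genes that modify, fold, process and crosslink collagen were mostly higher in the same libraries. Beside the counts below, 23.2% of all genes rose and 22.3% fell at E15.5, and 26.7% rose and 26.7% fell at E17.5. All 15 genes of hydroxylation and glycosylation rose at both stages (medians 1.05 and 0.89). P4ha2, a proline hydroxylase subunit, stood at 95.2 and 92.7 CPM against 262 and 248 at E15.5 and at 63.2 and 73.2 against 198 and 221 at E17.5, with no overlap, and it rose by 1.44 ± 0.11 and 1.62 ± 0.11 (adjusted p = 1.3e-06 and 3.4e-07). P4ha1, the other main subunit, rose by 1.18 ± 0.10 at E15.5, and the lysine hydroxylase Plod1 by 1.27 ± 0.10 at E17.5. Of 9 chaperone and secretion genes, 7 and 8 rose (medians 1.16 and 1.06), including the prolyl isomerases Fkbp10 (1.41 ± 0.12 and 1.51 ± 0.12) and Fkbp14 (1.22 ± 0.09 and 1.06 ± 0.09). Of 8 procollagen processing genes, 6 rose and Tll1 fell by 0.58 ± 0.21 (adjusted p = 0.040) at E15.5, and 7 rose at E17.5 (medians 0.98 and 1.77). Adamts2, which cuts the amino end off procollagen, rose by 1.53 ± 0.14 and 2.06 ± 0.14, and Adamts14 by 0.75 ± 0.11 and 1.15 ± 0.11. The enhancer Pcolce rose by 1.17 ± 0.15 at E15.5 and stood at 263 and 313 CPM against 769 and 852 at E17.5.

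All 5 crosslinking oxidases rose at both stages (medians 1.10 and 1.37). Lox, the founding lysyl oxidase, stood at 158 and 177 CPM against 581 and 617 at E15.5 and at 131 and 144.5 against 479 and 465 at E17.5. It rose by 1.84 ± 0.11 and 1.78 ± 0.11 (adjusted p = 2.7e-07 and 2.2e-07), and Loxl2 rose by 1.28 ± 0.11 and 1.69 ± 0.11. Of 8 small proteoglycans that bind fibrils, 7 rose at each stage (medians 1.01 and 1.02). Aspn rose by 1.37 ± 0.12 and 1.17 ± 0.12 and Prelp by 1.04 ± 0.14 and 1.70 ± 0.14. Ogn rose by 1.17 ± 0.10 at E15.5 and stood at 98.4 and 104.5 CPM against 210.6 and 181 at E17.5. Of 9 collagen receptors, Itga10 was not matched in the files and 7 passed the filter on low counts. Of these, 4 rose and 1 fell at E15.5 and 5 rose and 1 fell at E17.5 (medians 0.73 and 0.92). The receptor that fell was Ddr1, the discoidin receptor of epithelia, at 125 and 106 CPM against 61.5 and 59.4 at E15.5 and 114 and 109 against 51.1 and 53.1 at E17.5. It fell by 0.93 ± 0.10 and 1.10 ± 0.10 (adjusted p = 2.6e-05 and 5.7e-06), with no overlap of the groups. Ddr2, its relative in mesenchyme, rose by 1.04 ± 0.09 at E15.5. At E17.5 Ddr2 stood at 110.5 and 115 CPM in controls against 210.5 and 214.7 in knockouts. The endocytic receptor Mrc2 rose by 1.28 ± 0.13 and 1.70 ± 0.13. The integrin subunit Itga11, which binds type I collagen, rose by 2.425 ± 0.27 and 3.15 ± 0.27.

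Markers of other cell types were counted in the same comparisons, in which 23.2% of all genes rose and 22.3% fell at E15.5. Over all genes at E17.5, 26.7% rose and 26.7% fell. Of 14 dermal fibroblast markers, none of them a collagen, 13 rose at E15.5 and 12 at E17.5, with medians of 1.06 and 1.14. Twist1 did not pass at E15.5 (0.38 ± 0.15, edgeR adjusted p = 0.060). At E17.5 Twist1 stood at 64.8 and 90.7 CPM in controls against 78.8 and 89.2 in knockouts. The changes of the 14 markers ranged from 0.38 to 2.23 at E15.5 and from 0.11 to 3.08 at E17.5. Their summed level was 4061 and 4211 CPM in E15.5 controls, 9049 and 8233 in E15.5 knockouts, 4222 and 5231 in E17.5 controls and 9907 and 10100 in E17.5 knockouts, and none of them was at 0 throughout. These medians stand beside 1.33 and 1.68 for fibrillar, 1.17 and 1.43 for type VI and 1.34 and 1.28 for FACIT chains. All 10 endothelial markers rose at both stages (medians 0.62 and 0.78). Beside them, Col4a1 changed by 0.56 and 0.76 and Col4a2 by 0.61 and 0.84. Col18a1 changed by 0.67 and 0.66, Col15a1 by 0.13 and 0.23 (not called) and Col8a1, the chain of vessel walls, by 1.78 and 1.70. Of 8 mural cell markers, 6 rose and 1 fell at E15.5 and 4 rose at E17.5. Of 10 skeletal muscle markers, 9 and 10 rose (medians 0.85 and 1.54), and of 8 Schwann cell markers, 5 and 7 rose and 1 fell at each stage. Of 8 osteoblast markers, 2 rose and 3 fell at E15.5 and 1 rose and 4 fell at E17.5. Their shares risen, 25% and 12.5%, were near or below those of all genes, and their shares fallen were 37.5% and 50%.

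Keratinocyte markers went the other way. Of 12 basal markers, 11 fell at each stage (medians -1.86 and -2.47), and 1 rose at E17.5. Their sum was 7869 and 7447 CPM in E15.5 controls against 2368 and 2364 in E15.5 knockouts, and 8109 and 8193 against 1609 and 1579 at E17.5. All 8 suprabasal markers fell at both stages (medians -3.11 and -5.23). Col4a6 (-1.5 and -0.77), Col23a1 (-0.87 and -1.48), Col13a1 (-2.08 and -1.80) and Ddr1 (-0.93 and -1.10) were lower in the same libraries. Col26a1 fell at E17.5 only (-0.61) and Tll1 at E15.5 only (-0.58). The part of the fibroblast, vessel, muscle, nerve and keratinocyte content of the libraries in the collagen changes was not tested.

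**Figure D5:**
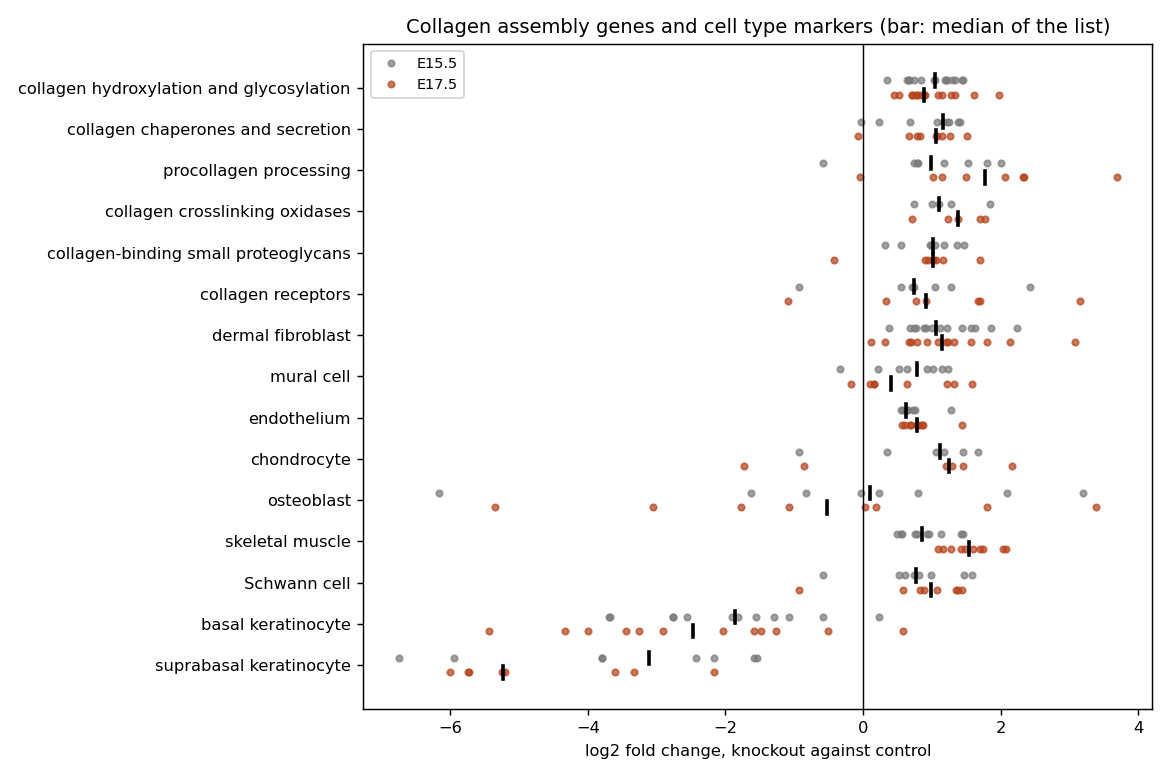
Log2 fold change of knockout against control (x axis) for each tested gene of the collagen assembly lists and of the cell type marker lists, grey for E15.5 and red for E17.5; black bars are the medians of a list. The assembly and fibroblast medians lie between 0.73 and 1.77, endothelial medians at 0.62 and 0.78, and keratinocyte medians between -1.86 and -5.23.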

How the data were processed

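The authors deposited raw read counts, whole numbers for each RefSeq transcript, that had not been normalized. Reads were aligned to mm10 by TopHat version 2, per the series design text, and the authors counted them with HOMER and compared groups with edgeR. The strand setting, the handling of reads that match several places and the read length were not stated in the labels or files used here. The files held 30521 transcripts, of which 29908 were named from RefSeq's gene table for GRCm38.p6 and 182 more by GENCODE M21. The 431 unnamed transcripts held 2.08% of counts and entered neither library sizes nor tests. Each gene was represented by its transcript with the largest total, which concerned 6 of the 41 collagen genes with several transcripts. Joined tables for each stage were compared with the single-library files, differed in 0 values, and were not used.

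Differences were tested on these counts in edgeR 4.0.16 (R 4.3.3): filterByExpr on the 4 groups (16342 genes kept), trimmed mean of M values (TMM) scaling and 1 quasi-likelihood fit over all 8 libraries, tested on simulated counts first. P-values were adjusted by Benjamini-Hochberg over all of these genes, with a threshold of 0.05. The SE was taken as the size of the log2 fold change over the root of its F statistic. RPKM values are TMM-scaled CPM divided by the length of the transcript of the same accession in GENCODE M21, which matched for 41 of 41 chains. Promoter stretches and gene spans are RefSeq's on GRCm38.p6.

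The members, the gene lists, the tests and the alternatives were chosen with earlier results of these data known, and the lists come from general knowledge of collagen assembly and cell types. Values in every library are given for the 2 chains of each class with the highest mean RPKM, the partners in type I, IV and VI, chains called against most called members of their class, and up to 5 chains called for the difference between stages; up to 2 called genes a list with the smallest adjusted p are named. Col2a1, the other cartilage chains, Col13a1, Tll1 and Ddr1 were named after their values were seen, and the remaining chains are given by their changes. Alternatives were DESeq2 1.42.0 and its size factors, limma-voom (limma 3.58.1), library totals, other filters, summed transcripts, only the groups compared, a replicate block and leaving out each library.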

Additional observations from a re-analysis of the deposited data

Results flagged for a closer look

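The knockout effect on Col26a1 differed between the stages by the test of that difference itself. Its log2 fold change was 0.32 ± 0.12 (SE, 2 libraries a group) at E15.5 and -0.61 ± 0.12 at E17.5, and the difference was -0.93 ± 0.18 (edgeR adjusted p = 0.013 over all 16342 genes). All E15.5 knockout libraries were above, and all E17.5 knockout libraries below, the controls of their stage. Leaving out 1 library at a time, the difference stayed negative each time, and it missed the threshold without E15.5 control replicate 1 (-0.90, adjusted p = 0.055).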

How the results depend on the processing

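For the knockout comparisons the counts of chains moved little. At E15.5, 28 rose, with 23 to 29 when a library was left out and 24 to 29 under the other alternatives, and 3 fell throughout. At E17.5, 25 rose, with 22 to 26 and 23 to 26, and 4 fell throughout. Of 1221 values of the 72 called changes under alternatives, 0 changed direction and 57 missed the threshold, and 48 of the 72 changes never missed it. These values include fits that left out a library outside the groups compared, which makes the share that missed the threshold smaller. Where a left-out library ended a call, it was always a library of the groups compared. A value without an adjusted p was counted as unchanged. The causes were not tested.

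Counts in the other comparisons were small and moved more. For the difference between the stages, 1 chain was lower, against 2 with DESeq2, 3 with library totals alone, 2 with no filter on low counts and 0 to 4 with a library left out; 0 were higher, with 0 to 1 left out. In control epidermis, 1 chain fell with stage, against 0 with library totals alone, 0 with limma-voom, 0 in a fit of only the groups compared and 0 to 2 with a library left out; 1 rose, with 0 to 1. In knockout epidermis, 4 rose with stage, against 8 with DESeq2, 7 with limma-voom and 0 to 7 with a library left out; 5 fell, with 2 to 7. A fit of only the groups compared gives no value for the difference, which needs all 4 groups. Where a group kept 1 library, that library was assumed to vary like the other groups. Col2a1 at E15.5 ranged from 3.20 without knockout replicate 1 to 11.95 without control replicate 2, a size set by the prior count because control counts of 0 are left.

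With the replicate number as a block, 28 and 25 chains rose and 3 and 4 fell in the knockout comparisons, and 2 chains rose with stage in control epidermis in place of 1. Col9a2 at E15.5 missed the threshold under the block (1.41, adjusted p = 0.052), so the count of 28 holds a chain that had not passed without it. Deviations of libraries with the same number correlated at 0.103 at E15.5 and -0.043 at E17.5, so the numbers were not taken to pair the libraries.

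Summing all transcripts of a gene, which counts shared reads more than once, moved shares of the summed RPKM in E15.5 control, E15.5 knockout, E17.5 control and E17.5 knockout libraries to 77.3%, 81.8%, 74.6% and 81.6% for fibrillar chains, 1.87%, 1.02%, 2.21% and 0.948% for multiplexins, 14.9%, 13.4%, 16.4% and 13.5% for type VI, and 0.276%, 0.114%, 0.352% and 0.0754% for transmembrane chains. FACITs went to 1.34% in E17.5 knockouts, and the other chains to 0.358% in E15.5 controls and 0.0880% in E17.5 knockouts.

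With 2 libraries a group the spread is estimated from few samples. Col4a3 and Col10a1 had too few counts to be tested. For chains with few counts, such as Col4a4 and Col6a4, a change that did not pass is not evidence that there was none.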
